A study of Mus musculus with 10 samples.

Results

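The genes described here encode SR proteins, heterogeneous nuclear ribonucleoproteins (hnRNPs) and related splicing regulators, measured in haematopoietic stem cells of Dhx16-knockout and control mice. Dhx16 is a spliceosomal helicase that remodels the complex before catalysis. Members were the protein-coding genes whose symbol begins with Srsf, Hnrnp or Luc7l, with Tra2a, Tra2b, Ptbp1, Rbm25, Rbm39, Son, Srrm1, Srrm2, Pnn and Acin1 added by name. This gave 44 genes of the 52097 in the table. They fall into 13 SR proteins (the Srsf genes with Tra2a and Tra2b), 21 hnRNPs (the Hnrnp genes with Ptbp1, also called hnRNP I), 3 Luc7-like proteins and 7 related regulators. The knockout group held 5 libraries, titled Dhx16_CKO and carrying the genotype label KO. The control group held 5 libraries, titled Dhx16_fl and carrying the genotype label WT. Each library was made from about 5000 bone marrow cells sorted by flow cytometry on the gate Lin- Sca-1+ c-Kit+ CD48- CD150+. The Smart-Seq V4 kit, made for very small inputs, amplified cDNA from their polyadenylated RNA. The labels name no Cre driver, strain, age or sex, and do not say whether each library came from its own animal, so the p-values reflect the spread between these libraries alone, which may be technical.

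SR proteins carry RNA recognition motifs and a tail rich in arginine and serine repeats, bind exonic enhancers and recruit U1 and U2 snRNPs to nearby splice sites. The hnRNPs coat nascent transcripts through RRM or KH domains and often act against SR proteins at the same exons, while also taking part in mRNA export, stability and translation. Luc7-like proteins associate with the U1 snRNP and help select the 5' splice site. Many SR protein and hnRNP genes tune their own level by including an exon with a premature stop codon, which sends the transcript to nonsense-mediated decay, so a gene-level value sums productive and unproductive transcripts. Splicing itself was not measured here. In sorted bulk samples, fewer cells of a type and less RNA per cell cannot be told apart.

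Values are FPKM, fragments per kilobase of transcript in a library scaled to a common size, and a change is the knockout mean minus the control mean of log2 (FPKM + 1). A gene was tested if at least 5 libraries reached 10 FPKM (6913 genes) and called at a limma adjusted p under 0.05. From the steps between low values, the libraries were estimated to hold 12.2 to 20.6 M fragments (M, 1e6). The targeted gene, Dhx16, was at 9.49 ± 1.56 FPKM in knockout and 17.5 ± 3.81 FPKM in control libraries (SD, n = 5 each, change -0.81, limma adjusted p = 0.000638), without overlap between the groups. Whether its value covers the deleted part is not stated. Marker lists also moved with the genotype. Of the tested stem cell markers 8 of 11 were called lower (summed level 683 to 1091 FPKM in knockout, 977 to 1404 FPKM in control libraries), as were 7 of 7 megakaryocyte markers (713 to 1398 against 1490.0 to 2280.0 FPKM) and 3 of 3 macrophage markers (10.6 to 27.5 against 117 to 272 FPKM). Called higher were 10 of 10 erythroid markers (805 to 1253 against 136 to 435 FPKM) and 14 of 14 genes of S phase and mitosis (2233 to 2804 against 806 to 1215 FPKM). The 4 of 4 globin genes were also called higher, but their sums overlapped (1214 to 8151 FPKM in knockout, 216 to 2863 FPKM in control libraries). None of the 8 granulocyte and 6 bone matrix genes was called, and their sums ranged widely within each group (8546 to 40930 FPKM in knockout and 9657 to 74370 FPKM in control for granulocyte genes, 4549 to 47780 FPKM in knockout and 3180 to 65870 FPKM in control for bone matrix genes). No marker gene was at 0 in all libraries. C1qa, C1qc and the megakaryocyte gene Clec1b stayed under 10 FPKM in every knockout library, and C1qb passed it there only in CKO9. They could be tested only through the control libraries, where they are high, so their count as lower was partly set by that threshold. The macrophage genes Mrc1, Adgre1 and Cd163 were not tested. The part of these marker shifts in the values of the splicing regulators was not tested.

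Of the 44 genes, 40 were tested. The knockout libraries were called higher for 14 of them and lower for 7, and 19 were not called. Over all tested genes, 21.1% were called higher and 31.6% lower. The median change was 0.22 for the 40 genes and -0.12 for all tested genes. The classes differed in their counts. Among 19 tested hnRNPs 10 were called higher and 1 lower (median change 0.60), and among 11 tested SR proteins 3 were called higher and 2 lower (median 0.18). Among the 3 Luc7-like genes none was called higher and 1 lower (median -0.10), and among the 7 related regulators 1 was called higher and 3 lower (median -0.07). For 12 of the 40 genes every knockout library lay above every control library, and for 4 every knockout library lay below, against 12.9% and 22.1% of all tested genes. The 4 untested genes were low: Srsf9 averaged 8.804 ± 0.815 FPKM in knockout and 9.32 ± 1.74 FPKM in control, Srsf12 0.388 ± 0.264 FPKM in knockout and 0.674 ± 0.117 FPKM in control, Hnrnpa0 5.43 ± 0.338 FPKM in knockout and 4.52 ± 1.499 FPKM in control and Hnrnpul2 1.18 ± 0.179 FPKM in knockout and 1.68 ± 0.325 FPKM in control (SD, n = 5 each). With the filter lowered to 1 FPKM, where 13.4% of 13448 genes were called higher and 36.4% lower, Srsf9, Hnrnpa0 and Hnrnpul2 entered and none was called (limma adjusted p = 0.734, 0.229 and 0.0937), and Srsf12 still failed the filter.

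**Figure D1:**
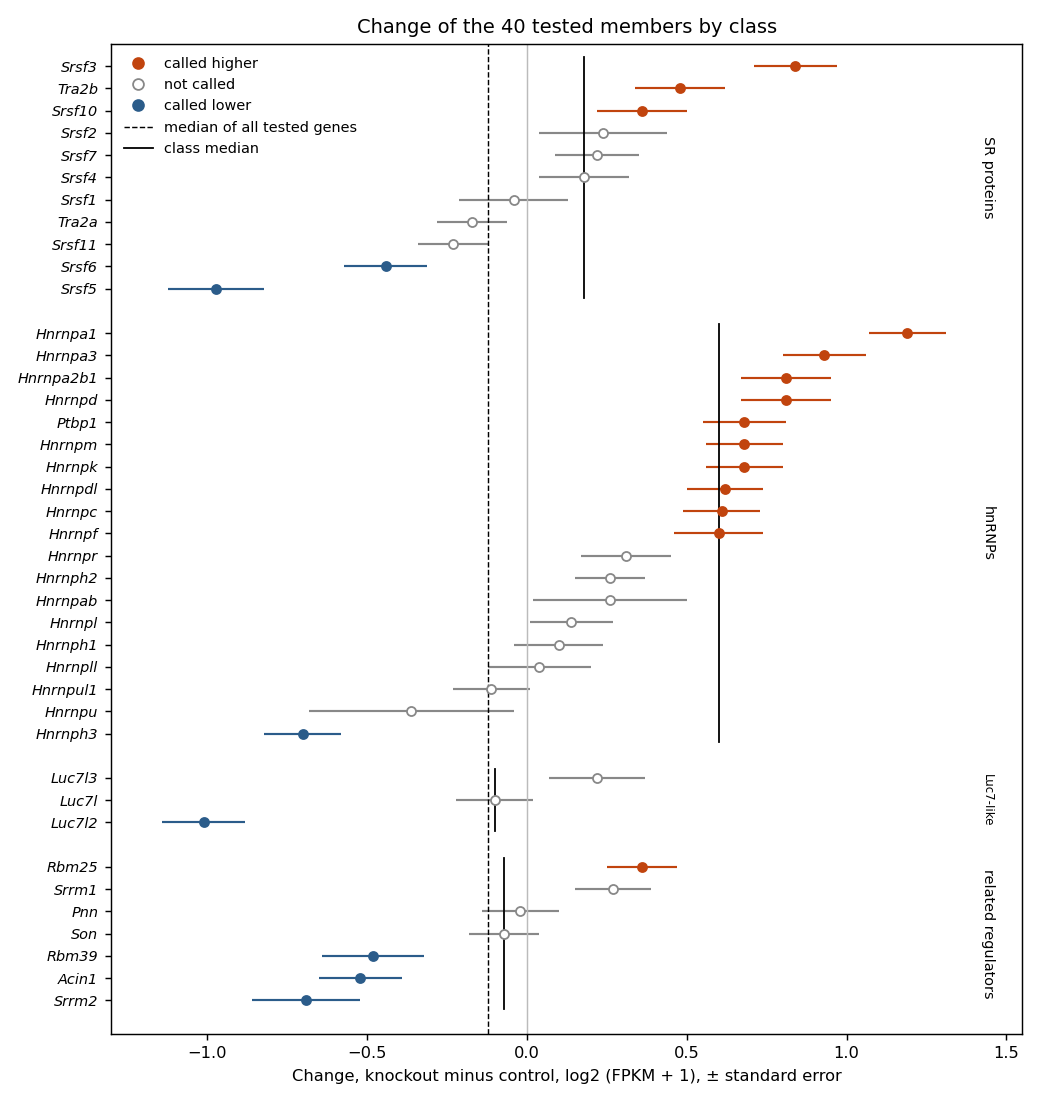
Change of each of the 40 tested genes, knockout minus control on the log2 (FPKM + 1) scale (x axis, with standard error), by class down the page, with filled points for called genes, a solid line at each class median and a dashed line at the median of all tested genes (-0.12). The 10 hnRNPs called higher lie between 0.60 and 1.19 and Hnrnph3, the hnRNP called lower, at -0.70, while SR proteins spread from -0.97 to 0.84.

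Promoter windows are shown for the 2 hnRNPs with the largest rises and for the SR proteins with the largest rise and the largest fall on the values as deposited, so that starts of genes that moved together and apart can be read side by side. The windows run from 250 bases before to 50 bases after a RefSeq start on build GRCm38.p6 (the assembly of mm10), 5' to 3' on the gene's strand, and were found for 41 of the 44 genes (not for Luc7l, Hnrnpll and Hnrnpul2). For each gene the RefSeq start nearest its annotated gene start was used. For Hnrnpk, Hnrnpm, Hnrnpl, Luc7l2, Rbm25 and Srrm2 it lay 1226 to 12655 bases away. For the other genes it lay at most 442 bases away. Capitals mark matches, on either strand, to the CCAAT box (CCAAT), the E-box (CACGTG), the TATA box (TATAAA), an ETS motif (CCGGAAG), a YY1 motif (AAGATGGC) and the CRE (TGACGTCA).
Hnrnpa1, chr15:103240147-103240446, plus strand: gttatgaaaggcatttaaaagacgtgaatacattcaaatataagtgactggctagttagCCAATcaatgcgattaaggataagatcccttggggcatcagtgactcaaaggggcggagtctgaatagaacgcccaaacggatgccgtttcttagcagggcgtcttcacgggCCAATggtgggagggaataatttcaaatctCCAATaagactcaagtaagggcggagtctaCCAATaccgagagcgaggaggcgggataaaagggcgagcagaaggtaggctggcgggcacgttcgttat
Hnrnpa3, chr2:75659009-75659308, plus strand: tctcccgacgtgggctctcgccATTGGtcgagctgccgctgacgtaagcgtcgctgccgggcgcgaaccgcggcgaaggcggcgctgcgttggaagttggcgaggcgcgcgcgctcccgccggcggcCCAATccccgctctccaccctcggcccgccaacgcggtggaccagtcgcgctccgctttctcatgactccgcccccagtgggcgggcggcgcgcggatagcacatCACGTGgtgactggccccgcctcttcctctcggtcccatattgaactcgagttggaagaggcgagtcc
Srsf3, chr17:29032410-29032709, plus strand: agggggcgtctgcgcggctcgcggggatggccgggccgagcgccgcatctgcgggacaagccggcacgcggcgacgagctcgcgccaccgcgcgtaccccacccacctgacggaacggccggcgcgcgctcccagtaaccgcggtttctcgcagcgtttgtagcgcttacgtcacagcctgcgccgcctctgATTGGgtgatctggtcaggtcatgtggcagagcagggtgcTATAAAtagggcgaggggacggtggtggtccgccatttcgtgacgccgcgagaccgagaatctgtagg
Srsf5, chr12:80945249-80945548, plus strand: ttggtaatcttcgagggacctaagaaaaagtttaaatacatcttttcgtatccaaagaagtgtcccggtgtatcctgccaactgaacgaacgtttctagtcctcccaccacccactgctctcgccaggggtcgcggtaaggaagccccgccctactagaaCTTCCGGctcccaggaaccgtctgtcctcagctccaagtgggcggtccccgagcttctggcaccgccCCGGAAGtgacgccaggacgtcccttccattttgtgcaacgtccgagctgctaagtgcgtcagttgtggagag
The first 3 belong to genes called higher and hold CCAAT boxes, with an E-box in Hnrnpa3 and a TATA box in Srsf3. The last belongs to a gene called lower and holds the ETS motif and none of the others searched. In these 4 windows no matches overlap each other. The other windows did not all follow this pattern. Hnrnpd, Hnrnpdl, Hnrnpf and Hnrnpm were called higher and have no CCAAT box, and Hnrnpd and Hnrnpf hold the ETS motif. Luc7l2 and Rbm39 were called lower and hold a CCAAT box, but the Luc7l2 window belongs to a start 4389 bases from the annotated gene start. Hnrnpab, Hnrnph1, Hnrnph2, Hnrnpl, Hnrnpr and Hnrnpul1 hold a CCAAT box and were not called. A relation between motifs and changes was not tested.

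A CCAAT box lay in the windows of 13 of 19 hnRNPs, 5 of 13 SR proteins and 37.4% of all 32851 windows in the table. The E-box lay in 5 of 19 hnRNP windows (Hnrnpa3, Hnrnpd, Hnrnph2, Hnrnpm and Ptbp1), in 0 of 13 SR protein windows and in 7.15% of all windows. Of those 5 hnRNPs, all but Hnrnph2 were called higher, beside 10 of all 19 tested hnRNPs and 21.1% of all tested genes. Hnrnpa1, Hnrnpa2b1, Hnrnpc, Hnrnpdl, Hnrnpf and Hnrnpk were also called higher and have no E-box in their windows. The ETS motif lay in 4 of 13 SR protein windows, 2 of 19 hnRNP windows and 8.86% of all windows. The TATA box (13.6% of all windows), the YY1 motif (2.75%) and the CRE (1.79%) lay in at most 2 windows of either class. A match is a run of letters, not a measured binding site.

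SR proteins moved in both directions. Srsf3, the smallest SR protein and an adaptor for mRNA export, had 397, 406, 379, 341 and 295 FPKM in the knockout libraries and 221, 201, 230.0, 179 and 179.9 FPKM in the control libraries (libraries in the order CKO7, CKO8, CKO9, CKO12, CKO13 and WT2 to WT6 throughout). Every knockout library lay above every control library, and Srsf3 (ENSMUSG00000071172, chr17:29032628-29043373, plus strand) rose by 0.84 (standard error 0.13, limma adjusted p = 0.000104). Tra2b, which binds purine-rich exonic enhancers, had 234, 238, 253, 182 and 195 FPKM in the knockout libraries and 179.6, 164, 186, 137 and 125 FPKM in the control libraries. CKO12 and CKO13 were the low knockout libraries, CKO12 lay just below the highest control library, and Tra2b rose by 0.48 (standard error 0.14, limma adjusted p = 0.0105). Srsf10, which acts as a splicing repressor once dephosphorylated in mitosis or heat shock, had 77.8, 101, 84.4, 62.04 and 72.4 FPKM in the knockout libraries and 64.2, 62.8, 71.2, 54.4 and 53.2 FPKM in the control libraries. The groups overlapped through CKO12 (62.04 FPKM) and WT4 (71.2 FPKM). Srsf10 was called higher by 0.36 (standard error 0.14, limma adjusted p = 0.034), and this call was lost without WT5, WT6, CKO7, CKO8 or CKO9, with changes of 0.27 to 0.37.

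Srsf5, first described as an SR protein induced in regenerating rat liver, was the SR protein with the highest control level. It had 327, 309, 272, 415 and 239.7 FPKM in the knockout libraries and 639.7, 587, 634, 636 and 529 FPKM in the control libraries. All 5 knockout libraries lay below all 5 control libraries, with CKO12 the highest of the knockouts, and Srsf5 (ENSMUSG00000021134, chr12:80945504-80950507, plus strand) fell with a change of -0.97 (standard error 0.15, limma adjusted p = 9.00e-05). Srsf6, an SR protein with a tandem pair of RNA recognition motifs, had 201, 175, 155, 173 and 134 FPKM in the knockout libraries and 268, 216, 233, 214 and 201 FPKM in the control libraries. CKO7, the highest knockout library (200.95 FPKM), lay just below WT6, the lowest control library (201.21 FPKM), and Srsf6 fell with a change of -0.44 (standard error 0.13, limma adjusted p = 0.0114).

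The other 6 tested SR proteins were not called. Srsf7, the closest relative of Srsf3 and also an export adaptor, had 428, 422, 408, 359.8 and 311 FPKM in the knockout libraries and 377, 336, 344, 294 and 295 FPKM in the control libraries. The groups overlapped, with CKO12 and CKO13 among the control values, and the change was 0.22 (standard error 0.13, limma adjusted p = 0.164). Tra2a, the paralog of Tra2b, had 53.8, 57.8, 58.5, 50.2 and 49.5 FPKM in the knockout libraries and 67.2, 60.8, 65.4, 56.3 and 54.3 FPKM in the control libraries. Its values overlapped as well, with knockouts mostly on the low side, and the change was -0.17 (standard error 0.11, limma adjusted p = 0.198). Srsf4, which like Srsf5 and Srsf6 has a tandem pair of RNA recognition motifs, had 63.4, 58.3, 61.4, 62.5 and 42.7 FPKM in the knockout libraries and 60.9, 54.2, 44.3, 42.3 and 52.1 FPKM in the control libraries. CKO13 stood below every other library except WT5, and the change was 0.18 (standard error 0.14, limma adjusted p = 0.286). Srsf11, a partner of U2AF, averaged 135 ± 9.16 FPKM in knockout and 159 ± 14.1 FPKM in control (SD, n = 5 each), with a change of -0.23 (standard error 0.11, limma adjusted p = 0.0904).

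Srsf1, the founding SR protein, and Srsf2, which is recurrently mutated in human myelodysplastic syndromes, had the widest knockout spread relative to their means among the tested SR proteins. Srsf1 had 62.5, 49.3, 30.1, 34.8 and 51.3 FPKM in the knockout libraries and 39.8, 43.8, 51.9, 45.5 and 46.3 FPKM in the control libraries. CKO9 and CKO12 lay below all controls while CKO7 lay above them all, and the change was -0.04 (standard error 0.17, limma adjusted p = 0.864). Srsf2 had 584, 469, 244, 485 and 409 FPKM in the knockout libraries and 313, 346, 469, 335 and 339 FPKM in the control libraries. CKO9 was the lowest of all 10 libraries and WT4 stood above the other controls, and the change was 0.24 (standard error 0.20, limma adjusted p = 0.334). Without CKO9, Srsf2 was called higher (change 0.44, limma adjusted p = 0.0340). Srsf2 overlaps Mfsd11 and Mettl23 on the opposite strand, and since strand use in counting is not stated, reads of such partners cannot be told apart.

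More tested hnRNPs were called higher than lower, 10 against 1. Hnrnpa1, an abundant shuttling hnRNP that binds UAG-containing exonic silencers, had 509.8, 578, 585, 486 and 504 FPKM in the knockout libraries and 256, 225, 259.5, 211 and 217 FPKM in the control libraries. Every knockout library was at or above 486 FPKM and every control library at or below 259.5 FPKM, so the groups were far apart. Hnrnpa1 (ENSMUSG00000046434, chr15:103240432-103246692, plus strand) rose by 1.19 (standard error 0.12, limma adjusted p = 5.04e-06). The 2 annotated Hnrnpa1-named pseudogenes in the table were at 0.67 FPKM or less in every library.

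Its closest relatives moved with it. Hnrnpa3 had 109, 105, 118, 89.7 and 102 FPKM in the knockout libraries and 57.3, 53.1, 70.7, 48.5 and 45.9 FPKM in the control libraries. All knockout libraries lay above WT4, the highest control library, and Hnrnpa3 (ENSMUSG00000059005, chr2:75659261-75669407, plus strand) rose by 0.93 (standard error 0.13, limma adjusted p = 4.13e-05). Hnrnpa2b1, which binds UAG motifs and takes part in RNA transport, had 1235, 1256, 1285, 1111 and 928 FPKM in the knockout libraries and 691, 616, 812, 611 and 594 FPKM in the control libraries. CKO13 was the lowest knockout library and still lay above all controls, and Hnrnpa2b1 (ENSMUSG00000004980, chr6:51460932-51469894, minus strand) rose by 0.81 (standard error 0.14, limma adjusted p = 0.000273).

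Hnrnpd, also called AUF1, binds AU-rich elements and promotes decay of mRNAs that carry them. It was the least abundant tested hnRNP in control cells, with 18.5, 22.9, 20.95, 19.1 and 19.4 FPKM in the knockout libraries and 11.4, 10.4, 15.2, 9.34 and 9.81 FPKM in the control libraries. The groups did not overlap and Hnrnpd (ENSMUSG00000000568, chr5:99955935-99978938, minus strand) rose by 0.81 (standard error 0.14, limma adjusted p = 0.000234). Hnrnpdl, its neighbour and paralog, had 115, 127, 126, 108 and 113 FPKM in the knockout libraries and 94.2, 68.8, 77.4, 68.7 and 73.99 FPKM in the control libraries. Its groups were also separate, and Hnrnpdl rose by 0.62 (standard error 0.12, limma adjusted p = 0.000409). Hnrnpf, which binds runs of G and had the highest control level of the class, had 1280.1, 1232, 1105, 1198 and 882 FPKM in the knockout libraries and 831, 687, 793, 721 and 703 FPKM in the control libraries. CKO13 was again the lowest knockout library, close above WT2, and Hnrnpf (ENSMUSG00000042079, chr6:117900324-117925622, plus strand) rose by 0.60 (standard error 0.14, limma adjusted p = 0.00193).

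The other 4 called hnRNPs rose by 0.61 to 0.68, each with every knockout library above every control library. The poly(C)-binding protein gene Hnrnpk averaged 1012 ± 89.1 FPKM in knockout and 628 ± 31.4 FPKM in control (limma adjusted p = 0.000305). Ptbp1, the polypyrimidine tract binding protein that represses exons flanked by CU-rich stretches, averaged 274 ± 32.8 FPKM in knockout and 170.3 ± 21.5 FPKM in control (SD, n = 5 each, limma adjusted p = 0.000477). Hnrnpm averaged 192 ± 18.9 FPKM in knockout and 120.1 ± 16.1 FPKM in control (limma adjusted p = 0.000374), and Hnrnpc, which binds uridine tracts of nascent transcripts, ranged from 298 to 347 FPKM in knockout and 182 to 247 FPKM in control (limma adjusted p = 0.00065). Hnrnpk, Hnrnpm and Ptbp1 overlap other annotated genes (Rmi1, March2 and Plppr3). These rises stand beside the 14 of 14 genes of S phase and mitosis called higher, and the part of that shift was not tested.

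Hnrnph3 was the only tested hnRNP called lower. It is a G-tract binder of the H and F family and had 35.9, 40.5, 42.2, 36.2 and 29.9 FPKM in the knockout libraries and 63.9, 52.01, 70.99, 57.6 and 57.5 FPKM in the control libraries. CKO9, the highest knockout library, lay below WT3, the lowest control library, and Hnrnph3 (ENSMUSG00000020069, chr10:63014664-63024217, minus strand) fell with a change of -0.70 (standard error 0.12, limma adjusted p = 0.000277). It overlaps Rufy2 on the opposite strand. Its relative Hnrnph1 had 308, 289, 293, 221 and 225 FPKM in the knockout libraries and 277, 212, 269, 252 and 229 FPKM in the control libraries. CKO7, CKO8 and CKO9 lay above all control libraries and CKO12 and CKO13 within the control range, and the change was 0.10 (standard error 0.14, limma adjusted p = 0.553). Hnrnph2, the X-linked copy, averaged 85.9 ± 4.31 FPKM in knockout and 72.1 ± 9.55 FPKM in control (SD, n = 5 each), with a change of 0.26 (standard error 0.11, limma adjusted p = 0.07). Of the 4 tested genes of the H and F family, Hnrnpf was called higher, Hnrnph3 lower and Hnrnph1 and Hnrnph2 neither way.

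The other 6 hnRNPs not called ranged in change from -0.36 to 0.31. Hnrnpr had the highest of these changes at 0.31 (standard error 0.14, limma adjusted p = 0.0795) and was called higher without WT2 or without WT4 (changes of 0.40 and 0.38), as was Hnrnph2 (0.30 each). It was followed by Hnrnpab at 0.26 (standard error 0.24, limma adjusted p = 0.389), and Hnrnpl, which binds CA repeats, stood at 0.14 (standard error 0.13, limma adjusted p = 0.35). Hnrnpll, known for the splicing of Cd45 in lymphocytes, stood at 0.04 (standard error 0.16, limma adjusted p = 0.841) and Hnrnpul1 at -0.11 (standard error 0.12, limma adjusted p = 0.485). Hnrnpu, a scaffold attachment factor and the member with the largest standard error, had 111, 81.4, 33.5, 42.2 and 87.1 FPKM in the knockout libraries and 67.5, 69.7, 85.2, 97.8 and 101 FPKM in the control libraries. The knockout libraries spanned the control range on both sides, with CKO9 and CKO12 lowest and CKO7 highest, and the change was -0.36 (standard error 0.32, limma adjusted p = 0.373).

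**Figure D2:**
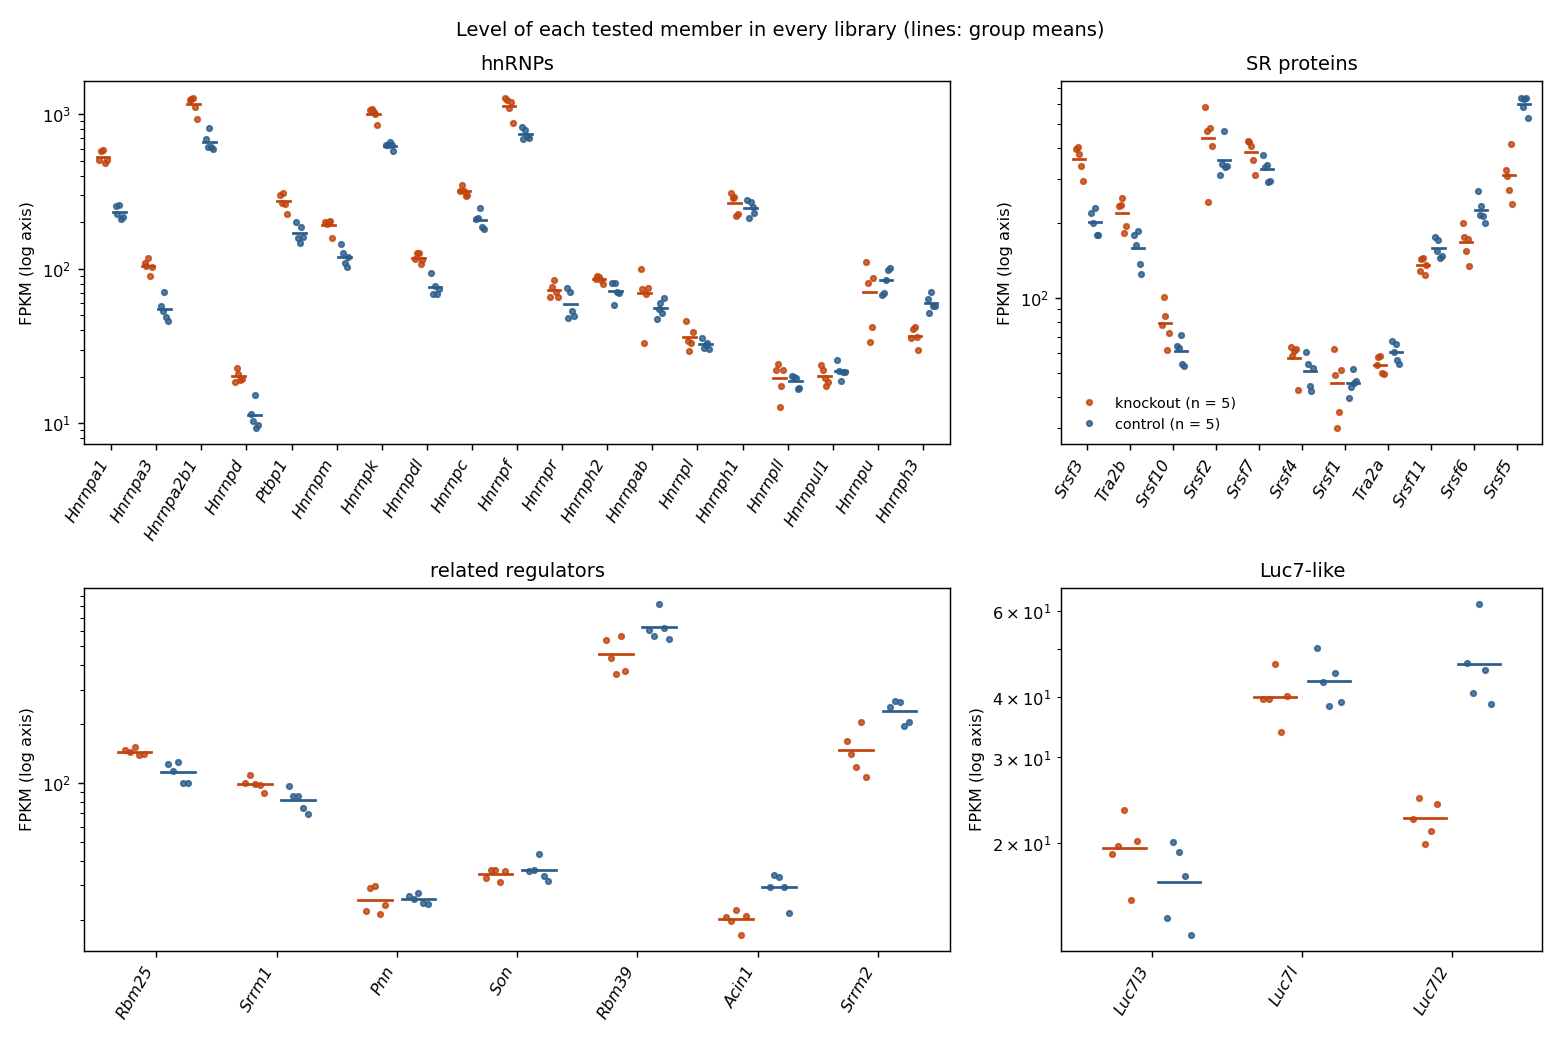
FPKM of each tested gene in every library (log axis, 1 point per library, line at the group mean), knockout left of control, by class. Hnrnpa1 sits at 486 to 585 FPKM in knockout and 211 to 259.5 FPKM in control libraries, while Srsf5 sits at 239.7 to 415 FPKM in knockout and 529 to 639.7 FPKM in control libraries.

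The 3 Luc7-like genes, mammalian relatives of the yeast U1 snRNP protein Luc7p, did not move as 1 group. Luc7l2, whose loss recurs in human myeloid neoplasms, had 22.4, 24.8, 19.9, 21.2 and 24.1 FPKM in the knockout libraries and 46.9, 40.7, 61.9, 45.3 and 38.6 FPKM in the control libraries. All knockout libraries lay at or below 24.8 FPKM and all control libraries at or above 38.6 FPKM, and Luc7l2 (ENSMUSG00000029823, chr6:38551334-38609470, plus strand) fell with a change of -1.01 (standard error 0.13, limma adjusted p = 2.70e-05). Luc7l had 39.6, 39.6, 46.6, 33.9 and 40.1 FPKM in the knockout libraries and 50.3, 42.8, 38.3, 44.6 and 38.9 FPKM in the control libraries. The groups overlapped and the change was -0.10 (standard error 0.12, limma adjusted p = 0.475). Luc7l3 had 19.03, 19.7, 23.4, 15.3 and 20.2 FPKM in the knockout libraries and 14.02, 20.1, 19.2, 17.1 and 12.99 FPKM in the control libraries. Its groups overlapped too, with CKO9 highest and WT6 lowest, and the change was 0.22 (standard error 0.15, limma adjusted p = 0.221). The levels per length put Luc7l above Luc7l2 and Luc7l2 above Luc7l3 in knockout cells, with Luc7l2 and Luc7l3 overlapping in range, and Luc7l2 and Luc7l side by side above Luc7l3 in control cells.

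Among the related regulators, Rbm25, whose human protein binds U1 snRNP-associated factors including the Luc7l3 protein, had 147, 144, 154, 138 and 141 FPKM in the knockout libraries and 125, 115, 128, 100.2 and 99.5 FPKM in the control libraries. Every knockout library lay above every control library, and Rbm25 rose by 0.36 (standard error 0.11, limma adjusted p = 0.0139). Srrm2, a scaffold of nuclear speckles, had 164, 139.9, 121, 206 and 107 FPKM in the knockout libraries and 244, 262, 260.3, 195 and 204 FPKM in the control libraries. CKO12 lay within the control range and the other 4 knockout libraries lay below it, and Srrm2 fell with a change of -0.69 (standard error 0.17, limma adjusted p = 0.00296). Acin1, which joins Rnps1 in the ASAP complex at exon junctions, had 20.6, 19.8, 22.4, 16.8 and 21.01 FPKM in the knockout libraries and 29.6, 34.1, 32.97, 29.5 and 21.8 FPKM in the control libraries. Only WT6 came within the knockout range, and Acin1 fell with a change of -0.52 (standard error 0.13, limma adjusted p = 0.00398). Srrm2 overlaps Elob and Acin1 overlaps several annotated genes, all but a miRNA gene in each case on the opposite strand.

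Rbm39, a U2AF-like protein and the target of the sulfonamide indisulam through Dcaf15, had the highest control level of these 7 genes. It had 534, 436, 359, 564 and 375 FPKM in the knockout libraries and 605, 563, 817, 621 and 542 FPKM in the control libraries. CKO12 lay within the control range and WT4 stood above all other libraries, and Rbm39 fell with a change of -0.48 (standard error 0.16, limma adjusted p = 0.0211). The call was lost without CKO9 (-0.40) and without CKO13 (-0.42). Srrm1, a splicing coactivator, averaged 99.1 ± 7.28 FPKM in knockout and 82.4 ± 10.5 FPKM in control (SD, n = 5 each), with a change of 0.27 (standard error 0.12, limma adjusted p = 0.0608). It was called higher without WT2 or without WT4 (changes of 0.33 and 0.29). Son, the other main speckle scaffold, averaged 34.3 ± 2.08 FPKM in knockout and 36.2 ± 4.497 FPKM in control, with a change of -0.07 (standard error 0.11, limma adjusted p = 0.634). Pnn, which joins Rnps1 in the PSAP complex, averaged 25.3 ± 3.92 FPKM in knockout and 25.6 ± 1.38 FPKM in control, with a change of -0.02 (standard error 0.12, limma adjusted p = 0.877). Of the speckle scaffolds Srrm2 was called lower and Son was not called. The difference between their changes was not tested.

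Differences between genes within a library do not move with a factor that scales the whole library, up to the added 1. The mean log2 (FPKM + 1) of the 19 tested hnRNPs minus that of the 11 tested SR proteins was -0.26, -0.25, -0.23, -0.29 and -0.15 in the knockout libraries and -0.58, -0.68, -0.61, -0.54 and -0.53 in the control libraries. The ranges did not overlap, and the group means were -0.24 ± 0.05 in knockout and -0.59 ± 0.06 in control (SD, n = 5 each), a difference of 0.35 that ranged from 0.33 to 0.37 with 1 library left out. The hnRNP mean differed between groups (7.02 ± 0.12 in knockout, 6.62 ± 0.10 in control) more than the SR protein mean (7.25 ± 0.14 in knockout, 7.21 ± 0.12 in control). These are descriptions of chosen genes, given without a test.

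Pairs of relatives also shifted within libraries. Tra2b minus Tra2a was 1.84 to 2.1 in knockout and 1.19 to 1.49 in control libraries, and Srsf3 minus Srsf7 was -0.11 to -0.06 in knockout and -0.77 to -0.58 in control libraries. Hnrnph1 minus Hnrnph3 was 2.57 to 3.07 in knockout and 1.91 to 2.11 in control libraries. In these 3 pairs the ranges were separate, so every knockout library exceeded every control library in these differences. Each of the 3 sets a called gene beside a relative not called, so the separation partly follows from those calls. The share of all gene pairs with separate ranges was not computed. Srsf5 minus Srsf4 was 2.13 to 2.71 in knockout and 3.32 to 3.88 in control libraries, again separate, while Srsf5 minus Srsf6 just overlapped (0.70 to 1.26 in knockout, 1.25 to 1.57 in control). Luc7l3 minus Luc7l2 was -0.45 to 0.22 in knockout and -1.67 to -0.99 in control libraries, and Luc7l minus Luc7l2 was 0.65 to 1.19 in knockout and -0.68 to 0.10 in control libraries. Hnrnpd minus Hnrnpdl overlapped, at -2.57 to -2.42 in knockout and -2.94 to -2.27 in control libraries, both genes having been called higher. The widest shift among these pairs was Hnrnpa1 minus Srsf5, chosen as the largest rise and fall of the 2 classes on the values as deposited, at 0.23 to 1.1 in knockout and -1.59 to -1.28 in control libraries.

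**Figure D3:**
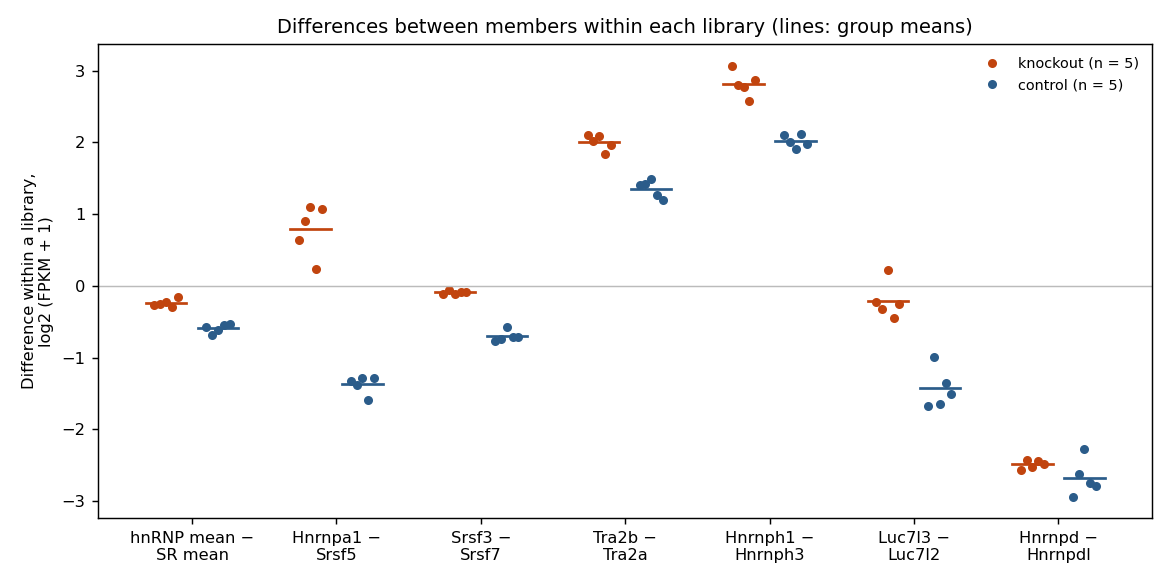
Difference in log2 (FPKM + 1) between 2 sets or genes within each library (y axis), 1 point per library with a line at the group mean, knockout left of control. Hnrnpa1 minus Srsf5 is above 0 in all 5 knockout libraries and below 0 in all 5 control libraries, while Hnrnpd minus Hnrnpdl overlaps.

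The authors' deposited table holds their own fold changes for the same genes. Among the 40 genes the authors' deposited table called 29 higher and 2 lower (Srsf5 and Luc7l2). Of the members not tested here, it called Hnrnpa0 higher (log2 fold change 0.68) and did not call Srsf9, Srsf12 or Hnrnpul2. Srsf6, Acin1 and Rbm39, called lower from FPKM, had positive log2 fold changes in it (0.19, 0.06 and 0.25) and were not called. Of the 23405 genes with an adjusted p in the authors' deposited table, 17.1% were called higher and 11.5% lower, and of the 6913 genes tested here 3062 were called higher and 688 lower. The log2 fold changes of the authors' deposited table exceeded the FPKM changes by a median of 0.40 over all tested genes (quartiles 0.35 and 0.43), so the 2 sources place their zero differently. The order of the genes was alike (Spearman 0.94 across 40 genes, which share the same libraries and are not replicates). The excess was above the upper quartile for 20 of the 40 genes and below the lower quartile for 8. It was largest for Srsf1 (0.84 in the authors' deposited table, -0.04 from FPKM), followed by Rbm39 (0.25 and -0.48) and Srsf10 (1.05 and 0.36). It was smallest for Srrm1 (0.31 in the authors' deposited table, 0.27 from FPKM), Hnrnpa3 (1.03 and 0.93) and Srsf7 (0.35 and 0.22). The size of the departure from the median excess had a Spearman correlation of -0.05 with the number of annotated transcripts across the 40 genes.

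**Figure D4:**
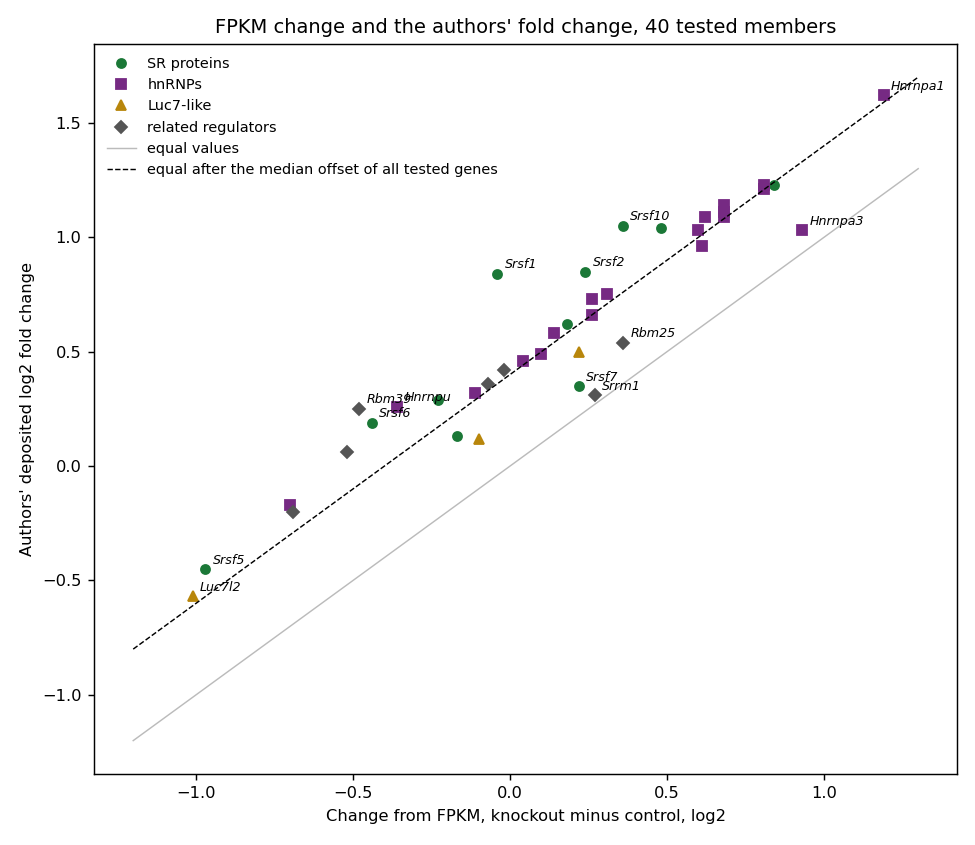
Log2 fold change in the authors' deposited table (y axis) against the change from FPKM (x axis), both knockout over control, for the 40 tested genes by class, with a grey line of equal values and a dashed line shifted by the median excess of all tested genes (0.40). Srsf1, Rbm39 and Srsf10 lie above the dashed line and Hnrnpa3, Srsf7 and Srrm1 below it.

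The split of calls depended on scaling. A single factor on the knockout libraries that brought the median excess to 0 gave 28 of the 40 genes higher and 2 lower (3050 higher and 773 lower among all tested genes, median change 0.28), and equal library totals gave 11 higher and 9 lower (1054 and 2671 of all tested genes, median -0.25). Upper-quartile factors gave 17 higher and 9 lower (1598 and 2441 of all tested genes). Median-of-ratios factors gave 18 and 6 (1998 and 1968 of all tested genes), and centring by transcript length 19 and 7 (2107 and 1858 of all tested genes). Over these 5 scalings and the values as deposited, 11 genes were called higher every time. They were the 10 hnRNPs named above and Srsf3. Luc7l2 and Srsf5 were called lower every time. Of all 6913 tested genes, 1051 were called higher every time and 773 lower every time. Hnrnph3, Srsf6, Acin1 and Srrm2 were called lower except under the factor from the authors' fold changes, and Tra2b and Srsf10 were called higher except with equal totals, as was Rbm25. Rbm39 was called lower in 4 of the 6 scalings and lost the call under median-of-ratios factors (-0.39) and the factor from the authors' fold changes (-0.07). With no filter on low values, Rbm39 (-0.48) and Srsf10 (0.36) were not called. None of the 40 tested members was called in opposite directions under these scalings. Srsf11 was called lower in 2 of the 6 scalings, while the authors' deposited table called it higher (log2 fold change 0.29). The changes of 10 of the 40 genes took both signs over these 6 scalings, namely Srsf1, Srsf11, Tra2a, Hnrnph1, Hnrnpll, Hnrnpu, Hnrnpul1, Luc7l, Pnn and Son.

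**Figure D5:**
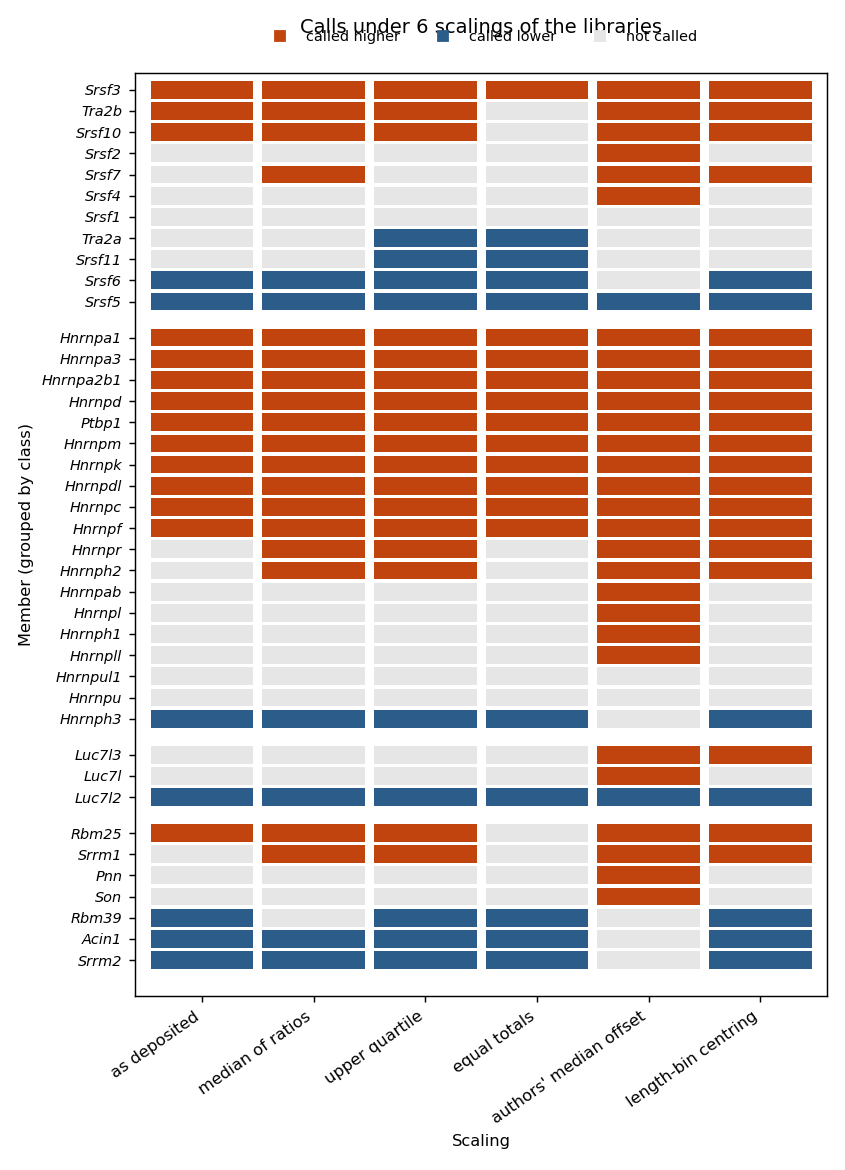
Calls at an adjusted p under 0.05 (limma) for the 40 tested genes (rows, by class) under 6 scalings of the libraries (columns), coloured by direction. Rows of 1 colour throughout are the 11 genes called higher and the 2 called lower every time. Of all 6913 tested genes, 1051 were called higher and 773 lower every time.

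CKO9 stood low for a few genes, a set picked out after the values were seen. It held the lowest value of all 10 libraries for Srsf1 (30.1 FPKM), Srsf2 (244 FPKM), Hnrnpab (33.2 FPKM), Hnrnpu (33.5 FPKM) and Hnrnpll (12.7 FPKM). The same held for Hnrnpl (29.15 FPKM) and for Rbm39 (359 FPKM) and Luc7l2 (19.9 FPKM), both called lower with all libraries. CKO9 also held the highest value of all 10 libraries for Hnrnpa1, Hnrnpa2b1, Hnrnpa3, Hnrnpr, Ptbp1, Tra2b, Rbm25, Luc7l3 and Pnn. For Hnrnpab the other 4 knockout libraries were at 68.8 to 100.1 FPKM and the control libraries at 47.5 to 64.6 FPKM. Without CKO9, Hnrnpab was called higher like Srsf2 (change 0.50, limma adjusted p = 0.00796), and Rbm39 and Srsf10 lost their calls. CKO9 was also the library with the most estimated fragments (20.6 M), and the part of depth was not tested.

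Transcript length and annotated isoforms were set beside the changes. Across the 40 genes the change correlated weakly with transcript length (Spearman -0.19), near the value over all tested genes (-0.16), where the shortest of 10 length bins had a median change of 0.23 and the longest of -0.23. With length-bin centring the class medians were 0.75 for hnRNPs, 0.30 for SR proteins, 0.05 for Luc7-like genes and 0.10 for related regulators. Transcripts annotated as targets of nonsense-mediated decay were listed for 30 of the 40 genes, namely 10 of 11 SR proteins, 11 of 19 hnRNPs, 3 of 3 Luc7-like genes and 6 of 7 related regulators, against 33.4% of all tested protein-coding genes. Transcripts with a retained intron were listed for 34 of the 40 genes and 67.3% of tested protein-coding genes. The gene-level values do not say which of these transcripts were present. The median number of annotated transcripts was 10 for the 40 genes and 6 for all tested protein-coding genes, and its part in these shares was not tested.

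Genes that act on these proteins were read from lists that name their enzymes, carriers and partners. Of 10 tested kinases and phosphatases of SR proteins, 2 were called higher and 5 lower, beside 21.1% higher and 31.6% lower of all tested genes. The phosphatase genes Ppm1g and Ppp1ca rose, by 0.97 (limma adjusted p = 2.28e-05) and 0.53 (limma adjusted p = 0.00149), and the kinase genes with the largest falls were Srpk2 at -0.87 (limma adjusted p = 7.61e-05) and Clk1 at -0.86 (limma adjusted p = 0.000124). Ppm1g averaged 163 ± 10.2 FPKM in knockout and 83.4 ± 13.8 FPKM in control, and Srpk2 averaged 13.4 ± 0.587 FPKM in knockout and 25.6 ± 4.79 FPKM in control (SD, n = 5 each), both without overlap between the groups. Of 6 tested nuclear import receptors, 3 were called higher and none lower, beside the same shares of all tested genes. Kpna2, an importin alpha, rose by 1.71 (limma adjusted p = 2.05e-06) and averaged 145 ± 23.9 FPKM in knockout and 43.8 ± 8.33 FPKM in control, and Ipo5 rose by 0.84 (limma adjusted p = 0.000364).

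Of 6 tested arginine methyltransferases, which modify the glycine-arginine tails of many hnRNPs, 2 were called higher and 1 lower. Prmt1, the main asymmetric methyltransferase, rose by 0.72 (limma adjusted p = 0.00235) and Prmt5, the main symmetric one, by 0.63 (limma adjusted p = 0.00112), while Prmt2 fell with a change of -1.32 (limma adjusted p = 1.28e-05). Prmt2 was at 3.12 to 5.88 FPKM in knockout and 11.86 to 16.29 FPKM in control libraries. It thus passed the filter of 10 FPKM only through the control libraries. Of 39 other tested splicing regulators, 7 were called higher and 10 lower, a share near that of all tested genes (21.1% higher, 31.6% lower). The largest rises were the cold-inducible Rbm3 at 1.09 (limma adjusted p = 1.07e-05) and Rnps1, the partner of Acin1 and Pnn, at 0.67 (limma adjusted p = 0.000296). The largest falls were Ddx17 at -0.90 (limma adjusted p = 0.000405) and Mbnl2 at -0.90 (limma adjusted p = 2.58e-05).

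Of 9 tested genes of the U1 snRNP and its partners, with which Luc7-like proteins associate, 3 were called higher and 3 lower, beside 21.1% higher and 31.6% lower of all tested genes. The U1 proteins Snrpc and Snrpa rose, by 0.55 (limma adjusted p = 0.00612) and 0.54 (limma adjusted p = 0.00946), and the U1-associated Prpf40b and Prpf39 fell, with changes of -0.74 (limma adjusted p = 0.00166) and -0.39 (limma adjusted p = 0.0368). Both falls lost their call under the factor from the authors' fold changes. Prpf40b was at 5.07 to 9.75 FPKM in knockout and 10.39 to 13.83 FPKM in control libraries. It thus passed the filter of 10 FPKM only through the control libraries. Of 6 tested nonsense-mediated decay factors, 4 were called higher and none lower, beside those same shares, with Eif4a3, the helicase core of the exon junction complex, rising by 0.77 (limma adjusted p = 9.19e-05) and Smg5 by 0.53 (limma adjusted p = 0.0173). The call of Smg5 was lost with equal library totals.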

How the data were processed

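RNA of sorted bone marrow haematopoietic stem cells was measured in 5 knockout and 5 control libraries. Per the submitters' processing notes, the tools were HTSeq, Cufflinks 2.1.1 and Bowtie 0.12.9 on mm10, with no role given for each. The deposited library values carry no named unit and were taken as FPKM from the values, since the mean count per value rose with transcript length (Spearman 0.73 across 6913 genes). Per the file headers, the authors also deposited results in the column format of DESeq2, namely a mean normalized count (a signal), log2 fold changes and their standard errors, a test statistic (a score), and p-values with adjusted p-values. Library columns were assigned to a group by name, not to a titled sample, because their numbers match no title.

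FPKM values were used as deposited. Genes reaching 10 FPKM in 5 of the 10 libraries (6913 of 52097) were tested with limma 3.58.1 (R 4.3.3, trend and robust options) on log2 (FPKM + 1), with Benjamini-Hochberg adjustment over all tested genes and calls at an adjusted p under 0.05. A fold change on this scale understates the change of low genes. The design allowed for a count model, which the FPKM values could not take. The procedure was tested on simulated data. Alternatives were pseudocounts of 0.1 and 5, filters of 1 and 20 FPKM and none, 5 scalings, library quality weights, a fit without the robust option, and each library left out. Depth was estimated from whole-fragment steps in low values (78.1% to 85.4% of them within 0.1 of a whole fragment), so it is approximate. Positions and transcript classes are from GENCODE M21, where all 52097 identifiers matched, and promoter windows are from RefSeq on GRCm38.p6. The members and lists were chosen with earlier results of these data known, so their counts, medians and within-library differences are descriptions without a test. Values in every library are given for all Luc7-like genes, the called genes with the largest rises and falls in each class (up to 4 each way, 3 for related regulators), the most abundant gene of each class in control, and paralogs set beside them. Srsf1, Srsf2 and Hnrnpu were added after their values were seen. Of each companion list at most the 2 largest called changes each way are named.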

Additional observations from a re-analysis of the deposited data

Results flagged for a closer look

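In 6 of 88 groups of 5 libraries (44 genes in 2 groups), 1 library stood apart by Dixon's criterion, where chance flags about 1 in 20 groups. In the knockout group, CKO13 was low for Srsf4 (42.7 FPKM, the other 4 at 58.3 to 63.4), for Hnrnpm (158.69 FPKM, the others at 194 to 203) and for Hnrnpul2 (0.87 FPKM, the others at 1.19 to 1.31). CKO12 was low for Hnrnpa0 (4.85 FPKM, the others at 5.50 to 5.73). In the control group, WT4 was high for Srsf2 (468.68 FPKM, the others at 313 to 346) and for Rbm39 (817 FPKM, the others at 542 to 621).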

How the results depend on the processing

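No paired analysis was possible because the library columns carry numbers that the 2 groups do not share. Calls moved with the scaling. Under the factor from the authors' fold changes, 28 of the 40 tested genes were called higher and 2 lower, with 6 of 11 SR proteins higher and 1 lower, 16 of 19 hnRNPs higher and 0 lower, all 3 Luc7-like genes called, and 4 of 7 related regulators higher and 0 lower. Of all 6913 tested genes, this factor gave 3050 higher and 773 lower. With equal totals, 1 SR protein was higher and 4 lower, and 0 related regulators higher, beside 1054 higher and 2671 lower of all tested genes. Upper-quartile factors gave 4 SR proteins lower and 2 related regulators higher, length-bin centring 2 Luc7-like genes called and 2 related regulators higher, and median-of-ratios factors and library quality weights 2 related regulators higher each. Of all tested genes, upper-quartile factors gave 1598 higher and 2441 lower, and length-bin centring 2107 and 1858. Median-of-ratios factors gave 1998 and 1968 of them, and library quality weights 1900 and 2183. With the values as deposited, the calls of all tested genes numbered 3642, against 6687 with a filter of 1 FPKM and 5910 with none. The sign of the change turned for 10 genes, none of them called as deposited. Under the factor from the authors' fold changes it turned to 0.30 for Luc7l, 0.24 for Tra2a, 0.36 for Srsf1, 0.18 for Srsf11, 0.04 for Hnrnpu, 0.28 for Hnrnpul1, 0.37 for Pnn and 0.33 for Son. With length-bin centring it turned to 0.05 for Luc7l and Hnrnpul1, 0.16 for Srsf1, 0.14 for Pnn and 0.10 for Son. Median-of-ratios factors gave 0.05 for Srsf1, 0.07 for Pnn and 0.03 for Son, and library quality weights 0.07, 0.05 and 0.01 for the same genes. Equal totals gave -0.04 for Hnrnph1 and -0.10 for Hnrnpll. With 1 library left out, the change ran from -0.16 to 0.10 for Srsf1, -0.04 to 0.18 for Hnrnpll, -0.08 to 0.03 for Pnn and -0.11 to 0.00 for Son. With 1 library left out, 13 to 17 members were higher and 6 to 7 lower, the related regulators called higher numbered 1 to 2 (2 without WT2 or without WT4, where Srrm1 was added), hnRNPs called higher 10 to 12, and the within-library hnRNP minus SR difference 0.33 to 0.37. In the same fits, 1236 to 1608 of all tested genes were higher and 1894 to 2231 lower. Over the 40 tested genes, 790 of the alternative values kept direction and side of the threshold, 18 lost the call, 39 gained it and 30 changed sign. The cause of these shifts was not tested. Gene-level FPKM cannot separate isoforms, overlapping genes or near-identical copies, and depth per library is an estimate.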
